A study of Mus musculus with 6 samples.

Results

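The genes described here are 10 mouse genes commonly used to recognise macrophages: the C1q chain genes C1qa, C1qb and C1qc, and Csf1r, Cd14, Lyz2, Adgre1, Mrc1, Cd68 and Itgax. They are the probes whose RefSeq accession on the array maps to these symbols, 10 of 23462 gene symbols with a probe. Expression was measured in flow-separated colonic epithelium of 3 male miR-31 knockout (KO) mice and 3 male wildtype (WT) mice, with 1 one-colour array per mouse. The comparison bears on how loss of miR-31 alters gene expression in the colon. Strain, age, litter, flow gate and the construction of the knockout are not given in the sources used here.

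C1q is the recognition unit of the classical complement pathway. It is built from A, B and C chains encoded by C1qa, C1qb and C1qc, and tissue macrophages are a main source of all of them. Macrophages of the gut lie mostly in the lamina propria beneath the epithelium, depend on signals through the CSF1 receptor, and take up bacteria, debris and dying cells. In RNA from bulk tissue, fewer cells of a type and less RNA per cell cannot be told apart.

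The mature strands of the deleted microRNA are shown because miR-31 defines the groups. Both lie on the minus strand of chromosome 4, the chromosome that also carries the C1q genes, at chr4:88910614-88910635 for the 5p strand and chr4:88910577-88910599 for the 3p strand. The sequences are from RefSeq (GRCm38.p6), 5′ to 3′, with the seed (bases 2 to 8) in capitals. No seed site was searched for in the macrophage genes.
mmu-miR-31-5p: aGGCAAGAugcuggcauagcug
mmu-miR-31-3p: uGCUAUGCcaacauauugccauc

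Promoter windows running from 250 bases before to 50 bases after the gene start were matched in RefSeq (GRCm38.p6) for 6 of the 10 genes. No window was available for C1qa, Csf1r, Cd14 or Adgre1, so these genes were not searched. Those of C1qb (chr4:136886151-136886450, minus strand) and C1qc (chr4:136892865-136893164, minus strand) are printed because both genes had lower signal on every KO array than on any WT array. Capitals mark the letters AGGAAGT, a core bound by ETS factors such as the myeloid factor PU.1, on either strand (read as ACTTCCT on the printed strand). It was the only motif searched. It was chosen after the sequences had been seen.
C1qb promoter: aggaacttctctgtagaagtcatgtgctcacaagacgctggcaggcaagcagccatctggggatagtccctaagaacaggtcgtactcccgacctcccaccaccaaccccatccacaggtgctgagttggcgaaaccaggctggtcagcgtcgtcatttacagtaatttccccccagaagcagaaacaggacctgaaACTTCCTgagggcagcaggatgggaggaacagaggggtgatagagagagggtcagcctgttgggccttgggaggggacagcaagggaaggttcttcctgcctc
C1qc promoter: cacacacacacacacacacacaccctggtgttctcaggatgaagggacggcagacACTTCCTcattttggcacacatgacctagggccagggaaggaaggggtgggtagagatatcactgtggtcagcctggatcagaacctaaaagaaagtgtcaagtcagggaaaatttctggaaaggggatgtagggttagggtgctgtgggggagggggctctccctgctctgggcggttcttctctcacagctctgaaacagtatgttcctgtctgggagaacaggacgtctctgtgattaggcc
The match begins 53 bases before the start of C1qb and 195 bases before that of C1qc. Single matches were also found for Lyz2 and Mrc1 and none for Cd68 and Itgax, so that 4 of the 6 windows held the letters, against 9.35% of 32851 promoter windows of the same length. A match is a description of these letters only. Because the motif was chosen after the sequences had been seen, the share among these windows is no measure of enrichment.

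None of the macrophage genes changed at the threshold used. Of the 10 genes, 9 passed the filter on dim and marked spots and entered the limma fit over 27909 features, and 0 of the 9 had an adjusted p under 0.05, where 0.204% of all features did (0.143% higher and 0.0609% lower). At an unadjusted p under 0.05, C1qa was higher and C1qb and C1qc were lower, where 3.18% of all features were higher and 7.56% lower. Log2 changes (KO minus WT) ranged from -1.15 for C1qc to 0.78 for C1qa, with 3 above and 6 below 0. The median of the 9 was -0.13, against -0.06 over all tested features, of which 38.5% lay above 0. For 3 of the 9, C1qb, C1qc and Cd14, all KO arrays lay below all WT arrays, as they did for 12.5% of all features. For 0 of the 9 did all KO arrays lie above, against 5.55% of all features, and 18.0% of features separated in either direction.

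**Figure D1:**
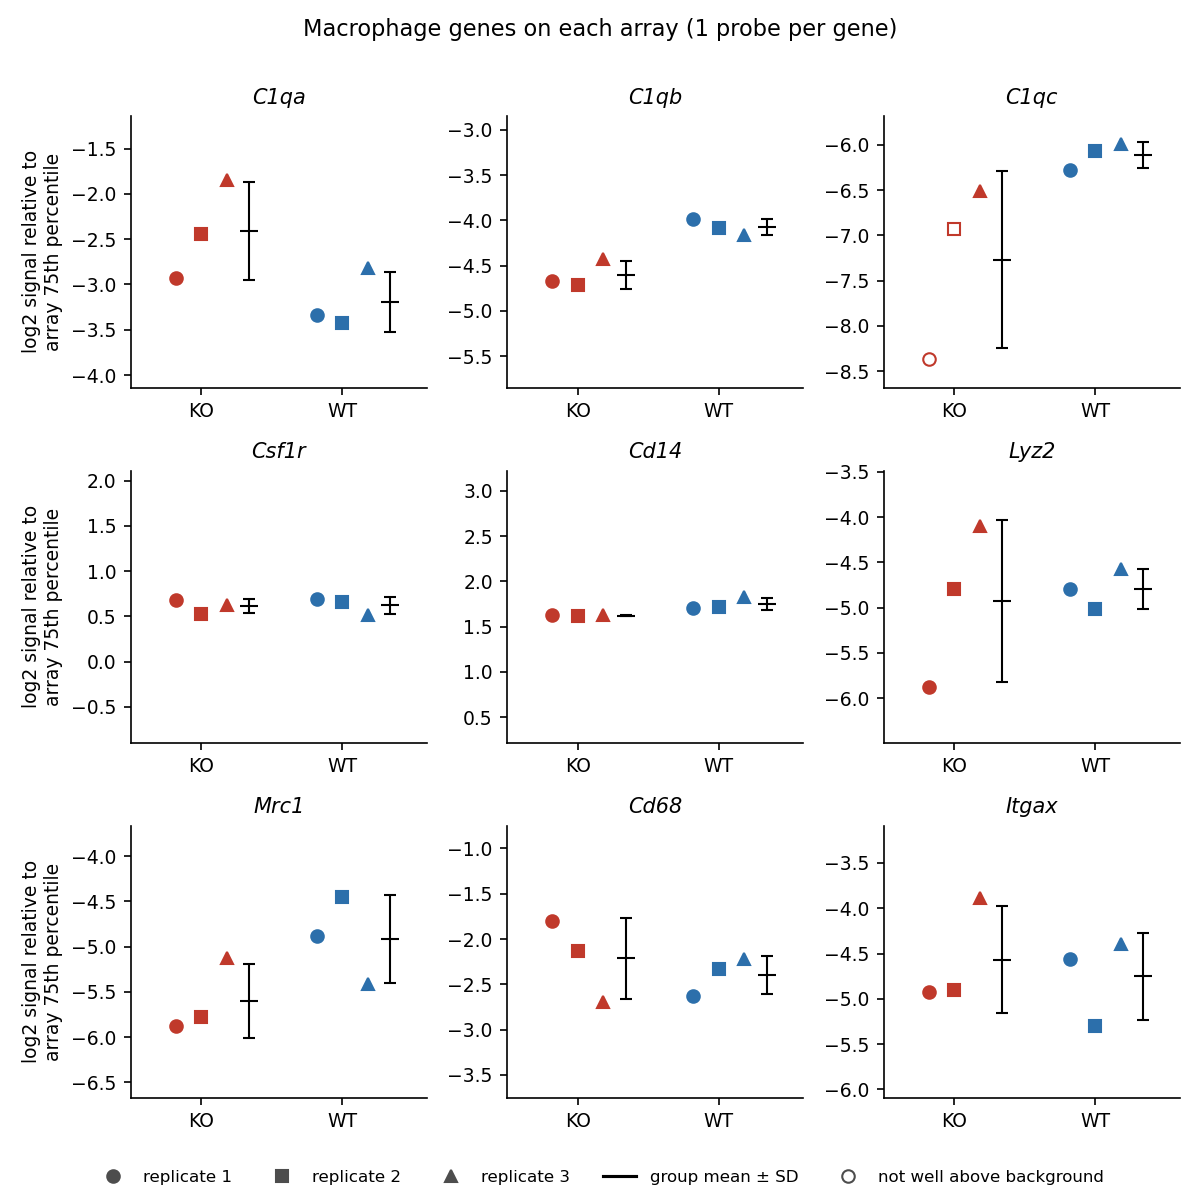
Signal of the 9 tested macrophage genes on each array, as log2 relative to the 75th percentile of the array, with KO left of WT. Each panel spans 3 log2 units, symbols are replicates, bars are the mean and SD of 3 arrays, and open symbols were not well above background. The tested probes of Csf1r and Cd14 lay within narrow ranges, and C1qb and C1qc were lower on every KO array than on any WT array.

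The C1q chains differed in direction, and none of them passed. C1qa signal was 13.1%, 18.4% and 27.7% of the array's 75th percentile on KO replicates 1 to 3, against 9.92%, 9.29% and 14.2% on WT replicates 1 to 3. KO replicate 3 was the highest and KO replicate 1 lay below WT replicate 3, so the groups overlapped. On the log2 scale C1qa differed by 0.78 ± 0.30 (SE, n = 3 and 3), a ratio of 1.72 with a 95% interval of 1.06 to 2.80 (unadjusted p = 0.0331, adjusted p = 0.418, limma). Without KO replicate 3 it was 0.51 on the log2 scale.

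C1qb lay in the other direction. Its signal was 3.93%, 3.81% and 4.66% of the 75th percentile on KO replicates 1 to 3, against 6.33%, 5.92% and 5.60% on WT replicates 1 to 3. The 2 groups did not overlap and each was tight. On the log2 scale C1qb differed by -0.53 ± 0.13 (SE, n = 3 and 3), a ratio of 0.693 with a 95% interval of 0.560 to 0.858 (unadjusted p = 0.00485, adjusted p = 0.255, limma). C1qb ranked 528 of 27909 features by p. With normexp background correction the change was -0.35.

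C1qc was dim. Its signal was 0.303%, 0.818% and 1.10% of the 75th percentile on KO replicates 1 to 3, against 1.29%, 1.49% and 1.57% on WT replicates 1 to 3. It was well above background on all 3 WT arrays but on only 1 of the 3 KO arrays, replicate 3. The log2 change was -1.15 ± 0.44 (SE, n = 3 and 3; unadjusted p = 0.0355, adjusted p = 0.425, limma), and its size is uncertain because 2 of the KO values lie at background. It was -0.60 without KO replicate 1 and -0.26 with normexp background correction.

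**Figure D2:**
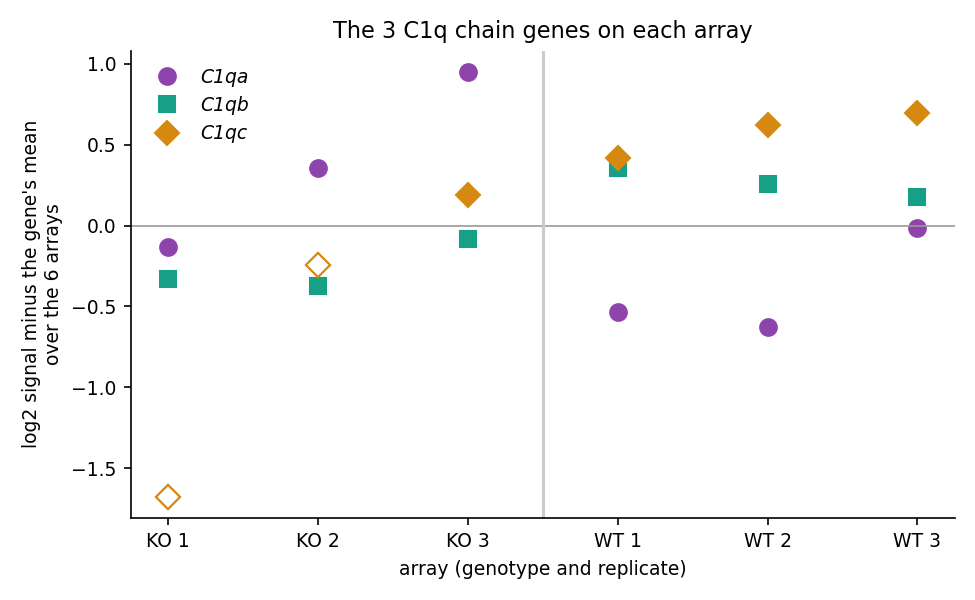
Log2 signal of C1qa, C1qb and C1qc on each array, each centred on its own mean over the 6 arrays, with the 3 KO arrays on the left and the 3 WT arrays on the right. Open symbols were not well above background. C1qa lay above C1qb on all KO arrays and below it on all WT arrays, and C1qc was lowest on KO replicate 1.

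The difference between chains was examined within each array, where scaling of the array cancels; this comparison was chosen after the values had been seen. The log2 difference C1qa minus C1qb was 1.74, 2.27 and 2.57 on KO replicates 1 to 3, against 0.65, 0.65 and 1.34 on WT replicates 1 to 3. The KO and WT values did not overlap, and their means differed by 1.31. No test is given, and no difference to C1qc is given because 2 of its KO values lie at background. The absolute difference between 2 probes carries no meaning on an array, and only its shift between groups is read. Each chain gene has 1 probe here, so the opposite directions of C1qa and the other chains rest on single probes.

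C1qb, C1qc and C1qa stand next to one another on chromosome 4 with 0 other tested protein-coding genes between them, and 390 tested protein-coding genes separate them from Mir31. Of the 5 tested genes on each side, 5 had a log2 change above 0 and 5 below, from -0.65 ± 0.38 for Wnt4, a Wnt ligand gene, to 0.17 ± 0.13 for Zbtb40 (SE, n = 3 and 3). None of these 10 neighbours passed by limma, and 1, the elastase-family gene Cela3b, had an unadjusted p under 0.05, with a log2 change of -0.34 ± 0.11.

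Csf1r encodes the receptor for CSF1 and IL-34 on which macrophages depend. Its tested probe gave 161%, 145% and 154% of the 75th percentile on KO replicates 1 to 3, against 162%, 158% and 143% on WT replicates 1 to 3. The groups overlapped almost fully. The estimated log2 change was -0.011 ± 0.12 (SE, n = 3 and 3; adjusted p = 0.986, limma), and the 95% interval of the ratio, 0.821 to 1.20, leaves out changes of 1.5-fold. A second Csf1r probe behaved otherwise, at -5.59, -4.50 and -4.01 on KO replicates 1 to 3 against -4.18, -4.72 and -4.29 on WT replicates 1 to 3 (log2 relative to the 75th percentile). It varied widely among KO arrays and its log2 change was -0.30 ± 0.39, with a 95% interval of -1.22 to 0.61. Changes of 1.5-fold are thus left out for the tested probe only, and the pattern of Csf1r over arrays depends on the probe. On the log2 scale the KO mean was 0.61 for the tested probe and -4.70 for the second. Which of the probes follows Csf1r was not tested.

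Cd14, the co-receptor that passes bacterial lipopolysaccharide to TLR4, varied least within the KO group on its tested probe. Its signal was 309%, 306% and 308% of the 75th percentile on KO replicates 1 to 3, against 327%, 330% and 354% on WT replicates 1 to 3. The groups did not overlap, but the gap was small. On the log2 scale Cd14 differed by -0.13 ± 0.11 (SE, n = 3 and 3; adjusted p = 0.712, limma), with a 95% interval of the ratio from 0.766 to 1.09. A second probe of Cd14 gave -0.25 ± 0.13. It lay at 1.44, 1.14 and 1.22 on KO replicates 1 to 3 (log2 relative to the 75th percentile). On WT replicates 1 to 3 it lay at 1.46, 1.47 and 1.61, so the very small KO spread holds for the tested probe only.

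Lyz2 encodes the lysozyme of macrophages and neutrophils. Its signal was 1.70%, 3.60% and 5.83% of the 75th percentile on KO replicates 1 to 3, against 3.61%, 3.08% and 4.20% on WT replicates 1 to 3. The KO arrays held both the lowest and the highest value. The log2 change was -0.13 ± 0.42 (SE, n = 3 and 3; adjusted p = 0.940, limma), the direction turned to 0.35 without KO replicate 1, and it was -0.54 without KO replicate 3. The paralog Lyz1, a lysozyme gene of Paneth cells in the mouse, had a log2 change of -0.19 ± 0.52, and signal shared between these related sequences was not tested.

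Mrc1 encodes the macrophage mannose receptor (CD206), which binds sugars on microbes and glycoproteins. Its signal was 1.70%, 1.82% and 2.86% of the 75th percentile on KO replicates 1 to 3, against 3.40%, 4.56% and 2.34% on WT replicates 1 to 3. KO replicates 1 and 2 lay below all WT arrays, whereas KO replicate 3 lay above WT replicate 3. On the log2 scale Mrc1 differed by -0.68 ± 0.29 (SE, n = 3 and 3), a ratio of 0.625 with a 95% interval of 0.385 to 1.01 (unadjusted p = 0.0551, adjusted p = 0.475, limma). The change was -0.45 without WT replicate 2, -0.33 with normexp background correction and -1.16 with the slide column as a block (adjusted p = 0.0747).

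Cd68 encodes macrosialin, a lysosomal glycoprotein. Its tested probe gave 28.6%, 22.7% and 15.4% of the 75th percentile on KO replicates 1 to 3, against 16.1%, 19.9% and 21.4% on WT replicates 1 to 3. KO replicate 1 was the highest and KO replicate 3 the lowest of all 6 arrays, the reverse of Lyz2. The log2 change was 0.18 ± 0.24 (SE, n = 3 and 3; adjusted p = 0.834, limma) and -0.023 without KO replicate 1. A second probe of Cd68 gave 0.13 ± 0.16. On it WT replicate 3 was the highest and WT replicate 1 the lowest array, so the place of KO arrays at both ends holds for the tested probe only.

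Itgax encodes CD11c, an integrin chain of dendritic cells and of many gut macrophages. Its signal was 3.30%, 3.35% and 6.77% of the 75th percentile on KO replicates 1 to 3, against 4.23%, 2.54% and 4.77% on WT replicates 1 to 3. The groups overlapped, with the highest value on KO replicate 3 and the lowest on WT replicate 2. The log2 change was 0.18 ± 0.35 (SE, n = 3 and 3; adjusted p = 0.891, limma), and it turned to -0.16 without KO replicate 3 and to -0.09 without WT replicate 2. A second probe of Itgax was not well above background on any array.

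Adgre1 encodes the adhesion receptor EMR1, the surface antigen by which mouse macrophages are most often stained. It was not well above background on any KO array with either of its 2 probes, and on the WT arrays only 1 probe was, on replicate 1 alone. No fold is given for it. This defining marker was therefore near background in both genotypes, and the group is called here by its genes rather than taken as a measure of macrophage number.

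**Figure D3:**
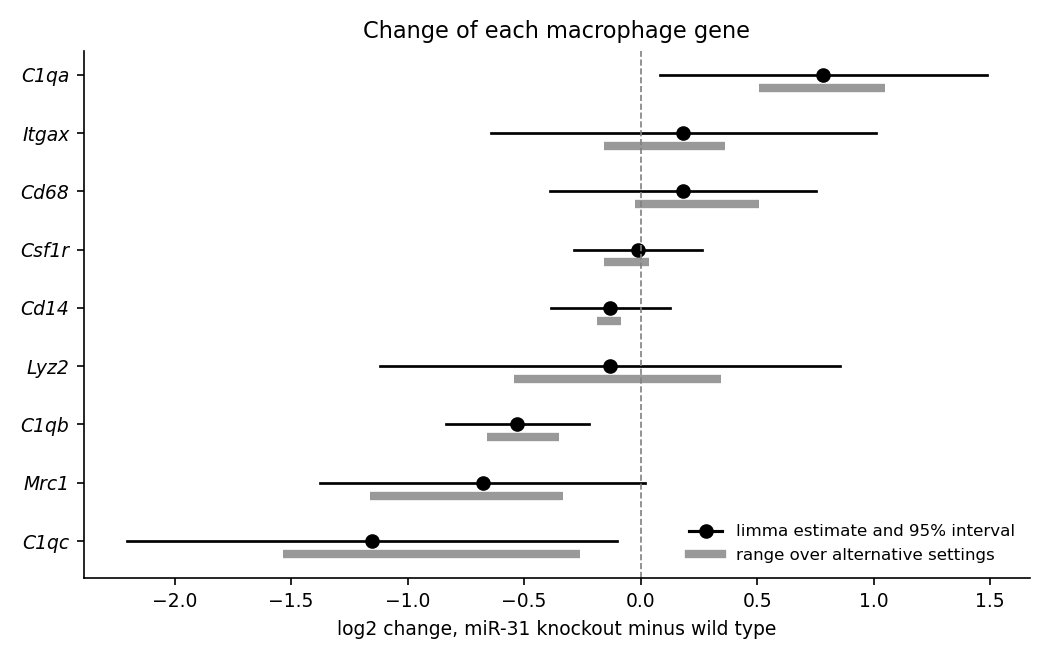
Log2 change (KO minus WT) of the 9 tested macrophage genes, with the limma estimate and its 95% interval in black and the range over the alternative settings in grey. The intervals of C1qa, C1qb and C1qc leave out 0 before adjustment, and the ranges of Csf1r, Cd68, Itgax and Lyz2 span it.

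The genes also varied among KO arrays. In 5 of the 9 tested genes, C1qa, C1qc, Lyz2, Mrc1 and Itgax, KO replicate 1 was the lowest and KO replicate 3 the highest KO array, against 20.7% of 25528 features measured on all KO arrays. This pattern was noticed after the values had been seen and was not tested. Pan-leukocyte markers shared it in 7 of 9 genes measured on all KO arrays and T cell markers in 9 of 11. The pattern also held in 6 of 9 classical pathway genes, 4 of 7 lysosomal genes and 5 of 9 fibroblast and smooth muscle markers. It was less common in B and plasma cell (2 of 11), epithelial (1 of 5) and endothelial (0 of 3) markers. The mean centred signal of the 10 tested pan-leukocyte genes, such as Ptprc, the gene of CD45, was -0.29, 0.05 and 0.43 on KO replicates 1 to 3, against -0.03, -0.32 and 0.18 on WT replicates 1 to 3. That of the 9 macrophage genes was -0.39, -0.11 and 0.25 on KO replicates 1 to 3, against 0.06, 0.03 and 0.15 on WT replicates 1 to 3. Pan-leukocyte signal thus differed more among the arrays of either group than between the group means. The part of pan-leukocyte signal in the values of C1qa, C1qc, Lyz2, Mrc1 and Itgax was not tested.

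**Figure D4:**
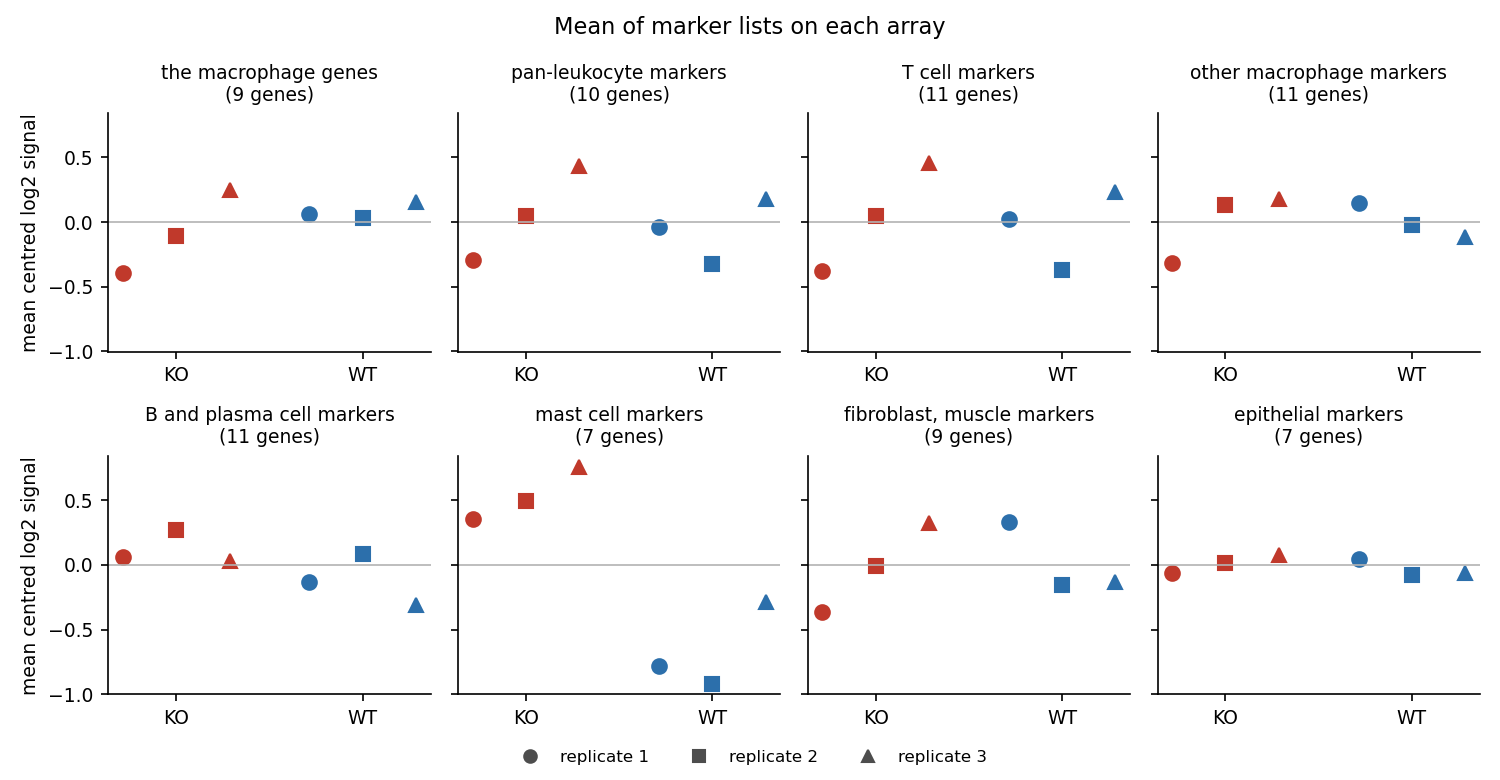
Mean centred log2 signal of the 9 macrophage genes and of 7 marker lists on each array, with KO left of WT, each gene centred midway between its group means, and symbols as replicates. Among KO arrays, all means shown except that of B and plasma cell markers were lowest on replicate 1 and highest on replicate 3. The mean of the 7 mast cell markers was higher on every KO array than on any WT array. In that list 4 genes were high and Cma1 and Tpsb2 were not.

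Likeness to the C1q genes was measured as the root mean square (RMS) difference between centred log2 profiles over the 6 arrays. The chains were themselves far apart, with an RMS difference of 0.74 between C1qa and C1qb, 1.02 between C1qa and C1qc and 0.62 between C1qb and C1qc, where 2 KO values of C1qc lie at background. Among the other macrophage genes, Lyz2 was nearest to the mean profile of the 3 chains at 0.24 and Cd68 farthest at 0.62. The 8 named genes nearest to that mean were Fhod3, Gata3, Lgr5, Slurp1, Ago4, C4a, Ppic and Dkk4, at 0.06 to 0.13. None of these 8 passed by limma, with log2 changes from -0.39 for Ppic to -0.16 for Lgr5. Because the mean averages profiles that differ, it follows no single chain. Its lowest point, -0.71 on KO replicate 1, averages -0.13 for C1qa, -0.33 for C1qb and -1.68 for C1qc. That C1qc value lay at background, so nearness to the mean, for Lyz2 and the 8 genes, rests in part on it.

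Other macrophage markers were mixed. Of 20 listed genes 11 were tested and 0 passed, with 4 above and 7 below 0 and a median log2 change of -0.13, which turned to 0.092 over 19 genes without the filter on dim probes and was -0.020 with normexp background correction. Ms4a7, a tetraspan gene of mature macrophages, had a log2 change of 0.85 ± 0.30 without overlap between groups, and Tyrobp, the signalling adaptor of many myeloid receptors, one of 0.59 ± 0.28 (SE, n = 3 and 3). Lyve1, a hyaluronan receptor gene of perivascular macrophages and lymphatic endothelium, was at -0.37 ± 0.14 and the scavenger receptor gene Marco at -0.20 ± 0.12. Both were lower on every KO array than on any WT array. Over all features, 18.0% separated in either direction. Several defining genes were at background: Fcgr1, Cd163, Timd4, Vsig4, Trem2 and Clec10a were not well above background on any array. Cx3cr1, the fractalkine receptor gene of gut macrophages, was well above background on 1 array only.

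The CSF1 axis and myeloid transcription factors had 8 of 12 genes tested, 0 passed, and the median log2 change was -0.12. Il34, the second ligand of the CSF1 receptor, was lower on every KO array than on any WT array, at -0.61 ± 0.21 (SE, n = 3 and 3; unadjusted p = 0.0216, adjusted p = 0.372, limma). The cytokine receptor subunit gene Csf2rb was at -0.29 ± 0.13 and Irf8, a myeloid transcription factor gene, at 0.17 ± 0.13. Csf2rb was also lower on every KO array than on any WT array, and Irf8 was higher on every KO array. Spi1, which encodes PU.1, was not well above background on any array.

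Partners of C1q in the classical pathway and its receptors had 9 of 10 genes tested, 0 passed, and the median log2 change was 0.01. Cd93, a receptor gene once linked to C1q uptake, was at 0.41 ± 0.25, the complement protease genes C2 and C1ra at 0.64 ± 0.41 and -0.38 ± 0.29, and Lrp1, an uptake receptor gene, at 0.13 ± 0.14 (n = 3 and 2 for Lrp1). In the CD14 and TLR4 pathway 9 of 12 genes were tested and 0 passed, with a median of -0.11. Lbp, which hands lipopolysaccharide to CD14, was at -0.73 ± 0.44, and Ly96, the TLR4 partner MD-2, at -0.13 ± 0.13. Ly86 was at -0.60 ± 0.52 and the lipoprotein receptor gene Tlr2 at -0.20 ± 0.22.

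Families of the single receptors held no gene that passed. All 6 genes of a list of beta2 integrins and related genes were tested, 0 passed and the median was 0.03. Itgal was at -0.22 ± 0.11 and Itgb2, the beta chain gene of the beta2 integrins, at 0.13 ± 0.28. The related genes Icam1 and Itgae, which do not encode beta2 integrin chains, were at 0.20 ± 0.22 and -0.08 ± 0.29. Of 8 mannose receptor relatives and C-type lectins only Ly75 (-0.10 ± 0.21) and Clec7a, the beta-glucan receptor gene (0.08 ± 0.29), were tested. Of 6 adhesion receptor relatives of Adgre1, Adgre5, Adgrl1 and Adgrl4 were tested, at 0.19 ± 0.16, 0.10 ± 0.14 and 0.20 ± 0.35. The lysozyme list had 2 of 4 genes tested, Lyz1 and Lyz2, with a median of -0.16.

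Lysosomal genes, related to Cd68 by compartment, had a log2 change above 0 in 9 of 10 tested genes, but the median was 0.07 and 0 passed. Lgmn, a lysosomal protease gene, was at 0.48 ± 0.16 (SE, n = 2 and 2), Lamp3 at 0.23 ± 0.12, Ctsl at 0.28 ± 0.18 and Lamp1 at 0.08 ± 0.11. Macrophage activation products had 10 of 14 genes tested, 0 passed and the median was -0.09. Retnla, an alternative activation product, was at 0.86 ± 0.33, the monocyte chemokine gene Ccl2 at -0.35 ± 0.11, Il12b at -0.57 ± 0.23 and Nos2 at -0.29 ± 0.19. Il6, Il10 and Chil3 were not well above background on any array.

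Markers of other cells that the sort could hold were read in the same way. All 13 epithelial markers were well above background on all 6 arrays when marked spots were kept; 7 were tested with a median log2 change of -0.02, Muc2 at 0.16 ± 0.11, Krt20 at 0.20 ± 0.15 (n = 2 and 3), Lgals4 at 0.16 ± 0.15 (n = 2 and 3) and Krt18 at -0.07 ± 0.12. All 11 T cell and all 10 pan-leukocyte markers were also above background, with medians of 0.12 and 0.09. Both medians turned when 1 array was left out, to -0.090 and -0.078 without KO replicate 3 and to -0.12 and -0.047 without WT replicate 2. Cd4, Cd8a, Lck and Cd3e were at -0.27 ± 0.20, 0.24 ± 0.22, 0.26 ± 0.25 and 0.20 ± 0.22, and Laptm5, Cd53, Coro1a and Cd48 at 0.37 ± 0.22, 0.26 ± 0.28, 0.15 ± 0.23 and -0.12 ± 0.23. None of these 3 lists had a gene that passed.

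Mast cell markers were mixed. Of 7 tested genes 2 rose, the protease genes Mcpt2 and Mcpt4, with log2 changes of 2.10 ± 0.13 (SE, n = 2 and 3) and 2.36 ± 0.20 (adjusted p = 0.00543 and 0.00887, limma). Cpa3 and Mcpt1 were at 2.14 ± 0.28 and 2.46 ± 0.43 (n = 2 KO arrays for Mcpt1) without passing (adjusted p = 0.0525 for Cpa3, limma), and Cpa3 was well above background on 3 KO arrays but only 1 WT array, so its size is uncertain. The other 3 tested genes overlapped between groups: the chymase gene Cma1 at -0.60 ± 0.31 (n = 3 and 2), the tryptase gene Tpsb2 at -0.25 ± 0.17 and Hdc, the histamine-forming enzyme gene, at 0.25 ± 0.32. The list median was 2.10, against 0.90 with normexp background correction and 1.27 with marked spots kept. The mean of the list was 0.35, 0.50 and 0.76 on KO replicates 1 to 3, against -0.78, -0.92 and -0.29 on WT replicates 1 to 3.

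Other myeloid markers had 0 genes that passed. Some genes named from the lists were well above background on only some arrays of a group, so the size of their change is uncertain. These include Ly86, Il12b, Ccr2, F13a1, Zbtb46, Ccr7, Camp, Ms4a1, Des and the mast cell marker Hdc. Monocyte markers had 5 of 8 tested with a median of 0.06, with Fn1 at 0.95 ± 0.56, the chemokine receptor gene Ccr2 at -0.92 ± 0.57, F13a1 at 0.41 ± 0.35 and Ace at 0.06 ± 0.23. Dendritic cell markers had 6 of 11 tested with a median of -0.03, with Sirpa at 0.996 ± 0.397, Zbtb46 at -0.25 ± 0.13, Siglech at 0.19 ± 0.16 (n = 3 and 2) and Ccr7 at -0.14 ± 0.29. Xcr1, Clec9a and Cd209a were not well above background on any array. Neutrophil markers had 5 of 13 tested with a median of -0.19, with Camp at -0.52 ± 0.20, Csf3r at -0.19 ± 0.12, Cxcr2 at -0.23 ± 0.19 and Mpo at -0.08 ± 0.13. S100a8 and 5 other neutrophil genes were not above background on any array.

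Lymphoid and stromal markers likewise had 0 that passed. B and plasma cell markers had 11 of 12 tested with a median of 0.06, with Jchain, the joining chain of secreted antibody, at 1.20 ± 0.24 and Blk at 0.58 ± 0.23 without overlap between groups, Ms4a1 at 0.88 ± 0.49 and Cr2 at -0.21 ± 0.15. Fibroblast and smooth muscle markers had 9 of 11 tested with a median of -0.09, with Myh11 at -0.47 ± 0.12, Des at -0.31 ± 0.18, Col1a2 at 0.55 ± 0.37 and Pdgfrb at -0.24 ± 0.22. Myh11 was lower on every KO array than on any WT array. Endothelial markers had 3 of 8 tested with a median of -0.18, Plvap at -0.30 ± 0.29, Pecam1 at -0.18 ± 0.20 and Vwf at 0.05 ± 0.17, and the other 5 were not well above background on any array.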

How the data were processed

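The authors deposited 1 Agilent scanner file per mouse. Per the file headers they were made with Feature Extraction 11.5.1.1, where the submitters' processing notes give 10.7. The spot intensity in these deposited files is linear, has had background subtracted and carries no scaling between arrays. The deposited series table repeats it on the same linear scale and direction, with no centring (99.7% of values within 0.01 log2 of the scanner files), and has column medians of 259, 228 and 241 for KO replicates 1 to 3 and 231, 234 and 247 for WT replicates 1 to 3.

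From 59305 non-control spots (56605 probes), marked outlier spots (4.95% to 17.3% per array) were left out. Values were taken as log2 minus the 75th percentile of each array, and spots of a probe were averaged; the deposited intensity itself is on no log2 scale. No spot was saturated. Accessions were named through a RefSeq table (GRCm38.p6, 33767 probes matched), and no probe coordinates were used because the design is on mm9. Testing required signal well above background on 3 or more arrays and 2 or more unmarked arrays in each group, and used the probe of a gene with the highest mean. Detection in this sense covered 60.7% to 73.3% of probes on an array, and arrays correlated at r = 0.979 to 0.989 across probes. The number of arrays limits the precision.

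KO was compared with WT by limma 3.58.1 in R 4.3.3 (two-sided, no covariate), with Benjamini-Hochberg adjustment over 27909 features at 0.05, by which 40 were higher and 17 lower. Version 1.17.8 of data.table, statmod 1.5.0, Python 3.11.15, pandas 2.3.3 and matplotlib 3.10.9 were also used. The macrophage genes and the 20 related lists were chosen with earlier results of these data known. Named genes are the 10 macrophage genes, up to 4 genes per related list with the smallest p, and the 8 genes nearest the C1q mean without clone or locus names. A gene that this rule names is not reported here. Other genes named for being undetected, beside the C1q genes, as an example, or as the remaining mast cell markers were chosen after their values were seen. The scanner files used hold no mean spot signal, so the normexp alternative used the median spot and background signals.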

Additional observations from a re-analysis of the deposited data

How the results depend on the processing

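None of the 9 tested macrophage genes passed under any of the 18 alternatives by limma, and C1qa, C1qb, C1qc, Cd14 and Mrc1 kept their direction in each that measured them (C1qc could not be measured with all 6 arrays above background). The lowest adjusted p was 0.165 for C1qa and 0.116 for C1qb, both with array weights, and 0.124 for C1qc and 0.0747 for Mrc1, both with the slide column as a block. Csf1r turned to 0.034 with normexp and 0.037 with the array median. With 1 array left out, log2 changes ranged from -0.062 to 0.030 for Csf1r, -0.023 to 0.42 for Cd68, -0.16 to 0.36 for Itgax and -0.54 to 0.35 for Lyz2, and the median of the 9 from -0.16 to -0.046. That median was -0.035 with quantile normalization, -0.070 with all 6 arrays above background and -0.055 with array weights. Over all features, 57 passed, 99 with normexp, 35 without the dim filter, 33 with all 6 arrays above background, 104 with trend and robust variance, 104 with array weights, 214 with the slide column and 20 to 115 with 1 array left out, with 27 without KO replicate 2, 115 without KO replicate 3, 20 without WT replicate 1 and 28 without WT replicate 2. The cause was not tested.

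Medians of 14 of the 20 related lists changed sign under at least 1 alternative; those of the CD14 pathway, adhesion receptor, lysosomal, mast cell, B cell and endothelial lists did not. Of 386 other values, 358 moved by less than the spread between arrays and 28 by more. The C1qa minus C1qb shift, with alternatives chosen after seeing the data, lay between 0.998 (normexp) and 1.54. No paired analysis was possible by replicate number because the labels give none. A block on the sample titles set the 4 arrays whose numbers begin alike against KO replicate 3 and WT replicate 3. The numbers of these last arrays differ from each other, and what the numbers mark is not stated. Each side held as many KO as WT arrays, so the block could not alter the log2 changes of the tested macrophage genes. Within the 4 arrays and between the replicates 3, Mrc1 was -1.16 and 0.29, Cd68 0.51 and -0.48, Lyz2 -0.43 and 0.47, and Csf1r -0.07 and 0.10. C1qa, C1qb, C1qc, Cd14 and Itgax each had the same direction in both. The second value of each gene rests on 1 mouse per genotype. The slide column as a block rests on the 2 columns that hold both genotypes, so KO replicate 3 and WT replicate 3 add nothing to it; within these columns C1qa was 0.40 and 0.99 and C1qb -0.69 and -0.63. All arrays shared 1 slide, KO in 1 row and WT in the other, so row and genotype cannot be told apart. C1qc on KO replicates 1 and 2, Adgre1 and the second Itgax probe are limited by background.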

Other observations

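After the C1q chains were seen to differ, the genes nearest to C1qa alone were listed by the same RMS difference. They were Hsd17b13, a lipid droplet dehydrogenase gene, Cidec, a lipid droplet fusion gene, Prkg2, the cGMP-dependent kinase gene of the intestinal brush border, Mypop, Tesc, Prkcb, Tlr5, the flagellin receptor gene, and Rftn1, at 0.11 to 0.17. Their log2 changes lay between 0.49 ± 0.27 for Rftn1 and 0.98 ± 0.26 for Cidec (SE, n = 3 and 3), and none passed by limma (lowest adjusted p = 0.280, for Cidec). None of them is on the macrophage or leukocyte lists.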
